A study of Danio rerio with 4 samples.

Results

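Wnt ligands, their receptors and their modulators were followed in hearts of zebrafish (Danio rerio) embryos at 48 hours post fertilisation (hpf). The members are all genes of the deposited table whose symbol begins as a wnt, fzd, sfrp, dkk, axin, lef1, tcf7, rspo, notum, wif1, nkd, dvl or ror1 and ror2 gene, together with lrp5, lrp6 and apc, and without wnt9b. This rule, which uses no measured value, found 58 of 16662 genes, of which 14 encode ligands, 12 Frizzled receptors, 4 Lrp or Ror receptors, 10 secreted inhibitors, 2 R-spondins, 11 intracellular transducers or inhibitors and 5 Lef or Tcf transcription factors. The series holds 4 RNA libraries of pooled hearts dissected by hand, 2 labelled tie1 KO and 2 labelled tie1 WT, and the comparison asks which heart genes differ when tie1, a receptor tyrosine kinase gene of endothelium and endocardium, is mutated. Both groups carried Tg(kdrl:eGFP), a reporter of endothelial cells. Since the series design names heterozygotes beside wild types among the control fish, the control pools may hold both genotypes and are called siblings here. The sources used here do not give the tie1 allele, how many hearts went into a pool, or whether the replicates of a group were separate clutches. The p-values therefore reflect only how these 4 pools vary, and part of that can be technical.

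Wnt proteins are secreted, lipid-modified ligands that bind Frizzled receptors. With the co-receptors Lrp5 and Lrp6 they halt the destruction of beta-catenin, a process that needs the scaffolds Axin and Apc, and beta-catenin then acts in the nucleus with Lef and Tcf factors. Genes such as axin2, lef1, nkd1 and notum1a are induced by this branch and several of their products limit it, while Wnt5 and Wnt11 ligands and the Ror receptors also act on cell polarity and movement without beta-catenin. In zebrafish hearts, beta-catenin signalling takes part in the formation of endocardial cushions, from which valves arise, and wnt11 genes in the shaping and electrical coupling of heart muscle.

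Estimated depth ran from 1770000 to 3240000 reads assigned to genes. The targeted gene tie1 had normalised values of 123 and 88 in the mutants against 558 and 300 in the siblings. Heart muscle markers were present in every library, so the tissue label was borne out by its markers. Their summed value over 10 listed genes was 76398 and 48082 in mutant hearts against 114455 and 71295 in sibling hearts, and these sums overlapped. Of the 11 tested heart muscle rows, 3 had both mutants below both siblings (27.3%, against 18.3% of all genes) and 8 overlapped. The 3 were both rows of actc1a and myh7, at 13077 and 7093 against 31906 and 21256. The pools differed in content. Summed erythrocyte markers (10 of 11 listed genes had a row) were 5310 and 4901 against 13735 and 11741, endothelial markers (10 of 10) 3514 and 2184 against 5688 and 3573, and skeletal muscle markers (10 of 10) 1533 and 1577 against 2798 and 2625. The endothelial list holds tie1 itself, and without tie1 the sum of mutant 1 lies above that of sibling 2, so these sums overlap. Gene by gene, 6 of the 10 endothelial rows had both mutants below both siblings, 0 had both above and 4 overlapped. The 6 were tie1, kdr, tek, fli1a, pecam1 and kdrl, so the lower values were not limited to tie1. Over the 10 rows, 9 were lower and 1 higher, with a median log2 fold change of −0.64. The skeletal muscle sum was mostly acta1b, at 962 and 748 against 1359 and 1316, and ckma, at 464 and 428 against 879 and 682. Of the 9 tested rows of that list, 7 had both mutants below both siblings and 2 overlapped. One of the 2 was mylpfa, whose 12 and 117 against 103 and 141 differed widely between the mutants. Summed epicardial markers (5 of 5) were 318 and 290 against 408 and 332. Of the 5 epicardial rows, 2 had both mutants below both siblings, 1 had both above and 2 overlapped. Neural markers (8 of 8) were 669 and 323 against 388 and 199, and no marker of any list was at 0. In pools of whole tissue, fewer cells of a type and less RNA per cell cannot be told apart.

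No Wnt member differed between tie1 mutant and sibling hearts past the threshold, and as a group the members were centred on no difference. Of the 58 members, 39 reached the minimum for testing, a mean value of 10 across libraries, and 19 lay under it, where tcf7 with a mean of 13.25 was the nearest inside and fzd3b with 8.75 the nearest outside. Among the 39, 19 had a lower and 19 a higher mutant mean and dvl3b stood at 0.00. Their median log2 fold change was 0.00, as it was over all 12118 genes tested, of which 50.2% were lower. With limma and Benjamini-Hochberg adjustment over all genes, 0 of the 39 were past an adjusted p of 0.05, and so were 0.0% of all genes. The mutated gene tie1 itself, with a log2 fold change of −1.97, did not pass either, at an adjusted p of 0.148 in limma. A member that did not pass can therefore still differ between the groups. The lowest adjusted p of a member was 0.58. At an unadjusted p under 0.05 stood 1 lower member, notum1a, and 1 higher member, fzd1, where all genes gave 4.34% lower and 2.61% higher. When library totals were rescaled without mitochondrial and erythrocyte genes, 15 were lower and 24 higher, with a median log2 fold change of 0.08 both over the members and over all genes tested.

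Differences between group means were close in size to differences between single pools of the same group. Means of 2 libraries vary less than single libraries, so these sizes are not like for like. On the log2(value + 1) scale, the median absolute difference between groups was 0.24 over the 39 members, and the median absolute difference between the replicates was 0.33 in the mutants and 0.26 in the siblings. For 29 of 39 members (74.4%), the difference between groups was smaller than the larger of the 2 replicate gaps, against 76.0% of all genes. The 95% interval lay within a 2-fold change in either direction for 24 of the 39 (61.5%, against 48.7% of all genes), and for the other 15 it reached beyond that size. The groups did not overlap in 12 of the tested members, with the mutants below in 9 (23.1%, against 18.3% of all genes) and above in 3 (7.69%, against 15.7%). The 9 were notum1a, notum1b, rspo2, wnt7aa, fzd2, apc, dvl2, dvl3a and nkd2a, and the 3 were fzd1, fzd8a and fzd9b.

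**Figure D1:**
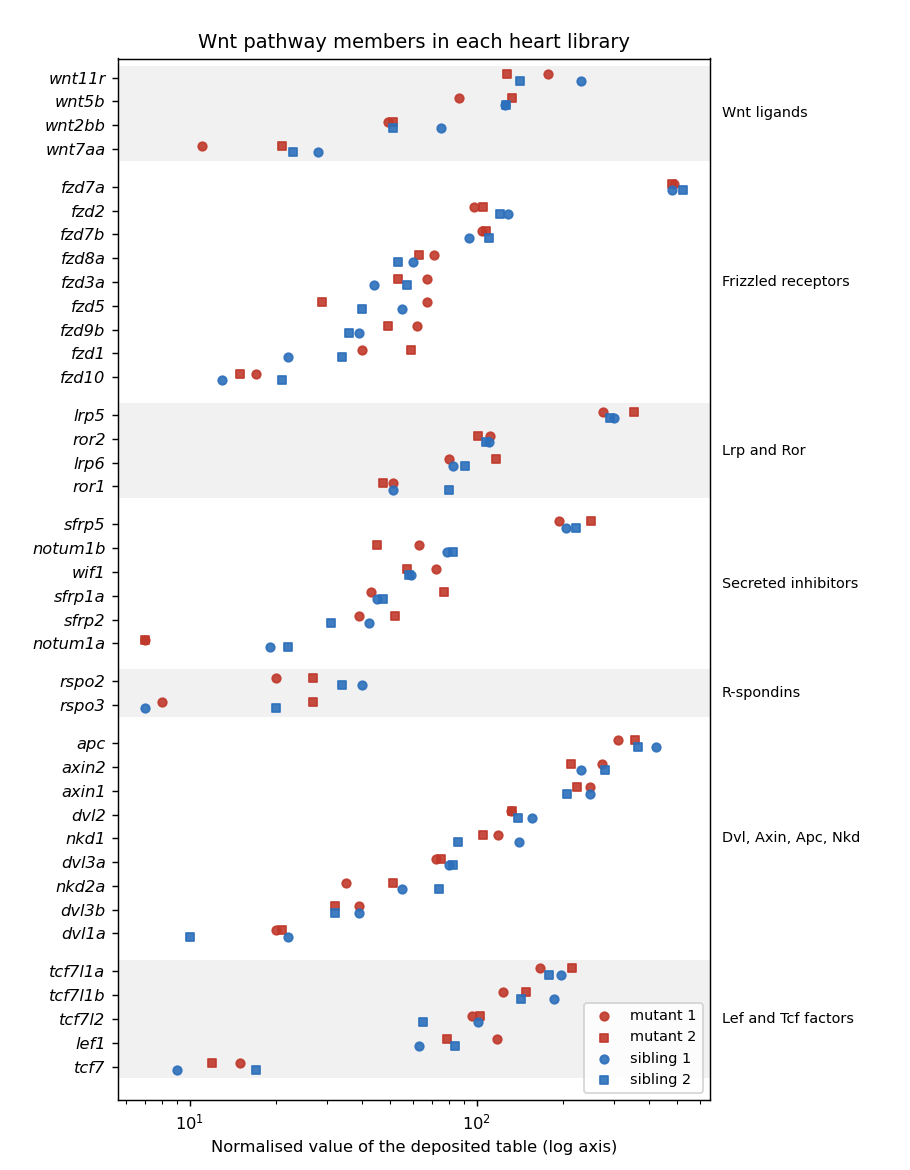
Normalised values (log axis) of the 39 tested members in each library, grouped by role; red marks are mutant and blue marks sibling libraries, circles replicate 1 and squares replicate 2. Most rows have red and blue marks interleaved, while notum1a has both mutant marks at 7 and the sibling marks at 19 and 22.

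**Figure D2:**
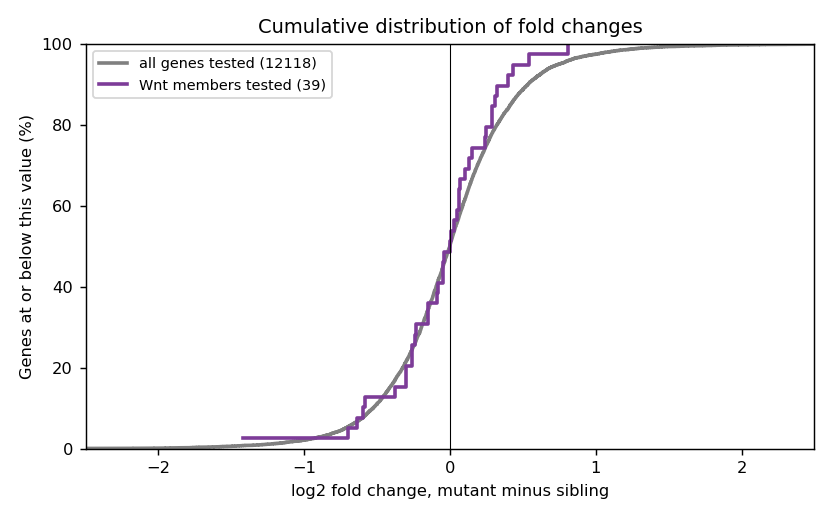
Percentage of genes (vertical axis) at or below each log2 fold change (horizontal axis), for all 12118 genes tested in grey and the 39 tested Wnt members in purple. Both curves cross 0 near the middle, with medians of 0.00.

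Among the ligands, 4 of 14 genes had values high enough to be tested, and none passed. Their log2 fold changes ran from −0.70 to −0.23. Values are not divided by transcript length, so they do not rank one gene against another. The gene wnt11r, which the gene name table lists as WNT11 and whose product guides the heart's morphogenesis, had 177 and 128 in the mutants against 230 and 141 in the siblings. In both groups the library of replicate 1 was the higher one, mutant 1 lay above sibling 2, and the log2 fold change was −0.26 ± 0.29 (standard error, SE, here and below). For wnt5b, the gene of a ligand of cell movement, the values were 87 and 133 against 126 and 127, so mutant 1 was low and mutant 2 the highest of the 4 (−0.23 ± 0.26). Without mutant 1 the difference came to 0.07, and for wnt11r it came to 0.09 without sibling 1, so the direction of both rests on 1 library. The wnt5b row overlaps fbxl14b on the other strand, with values of 43 and 65 in the mutants against 51 and 69 in the siblings. The gene wnt2bb, whose ligand from the lateral mesoderm helps to specify the liver, had 49 and 51 against 75 and 51, which leaves sibling 1 as the only library apart (−0.30 ± 0.28).

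The tested ligand gene whose groups did not overlap was wnt7aa. Its values were 11 and 21 in the mutants against 28 and 23 in the siblings, a log2 fold change of −0.70 ± 0.42 with a limma adjusted p of 0.783. The gap between mutant 2 and sibling 2 was small, and the change was −0.26 without mutant 1 and −1.14 without mutant 2. Wnt7 ligands act on brain endothelium through a receptor complex that contains Reck and Adgra2. The gene reck had 116 and 124 against 195 and 192. This is a log2 fold change of −0.69 ± 0.21 with an adjusted p of 0.548, and its groups did not overlap. The partner gene adgra2, named after its values were seen, had 145 and 188 against 175 and 181, and overlapped (−0.11 ± 0.22).

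The remaining 10 ligand genes were at the edge of detection. They were wnt2ba, wnt4a, wnt4b, wnt6b, wnt7bb, wnt8b, wnt9a, wnt10a, wnt11 and wnt16, with means of at most 8.25. The row called wnt11 here is wnt11f2 in the gene name table, and had 2 and 7 against 1 and 1. For wnt4a, with 9 and 0 against 2 and 8, 1 library of each group was high. A single library carried wnt6b, with 17 in mutant 1 and 4, 6 and 6 elsewhere, and wnt16, with 10 in mutant 1 and 0, 0 and 1 elsewhere. Mutant 1 was also the library with the highest summed neural markers, at 669, and their part in these values was not tested. The steadiest of the low ligands was wnt9a, with 7 and 9 against 7 and 6. Summed over all 14 ligand genes, the values were 388 and 367 against 487 and 386, with sibling 1 alone above the rest.

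Among the tested members, the 3 whose mutant values both exceeded the sibling values were Frizzled receptor genes. They made up 33.3% of the 9 tested, against 15.7% of all genes, and none passed. The highest change among tested members belonged to fzd1 (ENSDARG00000106062, minus strand of chromosome 16, GRCz11 positions 53917415 to 53919115), with 40 and 59 against 22 and 34. Every mutant value was above every sibling value, but mutant 1 exceeded sibling 2 by only 6 units. The means were 49.5 ± 13.4 and 28 ± 8.49 (SD, n = 2 each), and the log2 fold change was 0.81 ± 0.34, with an unadjusted p of 0.044 and an adjusted p of 0.713 in limma. It was 0.50 without sibling 1, 0.53 without mutant 2 and at most 1.11 without either of the others. For fzd9b the values were 62 and 49 against 39 and 36 (0.54 ± 0.28, adjusted p = 0.756 in limma), and for fzd8a 71 and 63 against 60 and 53 (0.24 ± 0.25).

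No other tested Frizzled gene had both mutant values above both sibling values. The gene fzd7a, whose product relays both branches of the pathway in the zebrafish gastrula, had 485 and 481 against 479 and 523, with a 95% interval of the log2 fold change from −0.50 to 0.40. Its paralogue fzd7b had 104 and 108 against 94 and 110 (0.06 ± 0.23). The opposite order was seen for fzd2, with 98 and 105 against 129 and 121 (−0.30 ± 0.22, adjusted p = 0.828 in limma). For fzd5, the values of 67 and 29 against 55 and 40 differed more between replicates than between groups, with replicate 1 higher in both. The log2 fold changes of fzd3a and fzd10 were 0.25 and −0.05. Below the mean of 10 lay fzd3b, with 12 and 11 against 5 and 7, fzd8b, with 10 and 3 against 2 and 1, and fzd9a, with 2 and 5 against 6 and 1, so both mutant values exceeded both sibling values in the first and the second of these as well. All 12 Frizzled genes together summed to 1035 and 981 in the mutants against 948 and 1004, and these sums overlapped. Neural markers, summed above, had the highest value in mutant 1, and their part in the Frizzled values was not tested.

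Co-receptor genes overlapped between the groups. For lrp5 the values were 275 and 353 against 301 and 292 (0.07 ± 0.22), and for lrp6 80 and 117 against 83 and 91 (0.15 ± 0.26), with mutant 2 the highest library in both. The lrp5 row overlaps ap3s2 on the other strand, with values of 13 and 7 in the mutants against 5 and 12 in the siblings. The direction of both turned without mutant 2, to −0.11 and −0.12. The gene ror2, which encodes a receptor tyrosine kinase for Wnt5 ligands, was the most even of the 4, with 111 and 101 against 110 and 108 and an interval from −0.54 to 0.46. For ror1 the values were 51 and 47 against 51 and 80, where sibling 2 alone stood apart (−0.38 ± 0.29, and −0.06 without it).

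Among the 39 tested members the largest log2 fold change was that of notum1a, a secreted inhibitor. Notum is a carboxylesterase that removes the lipid from Wnt proteins and so inactivates them. The gene notum1a (ENSDARG00000031126, plus strand of chromosome 3, GRCz11 positions 57948377 to 57979190) had normalised values of 7 and 7 in the mutants against 19 and 22 in the siblings. The 2 groups were apart by more than either replicate gap. The means were 7 ± 0 and 20.5 ± 2.12 (SD, n = 2 each), and the log2 fold change was −1.42 ± 0.47, a fold of 0.373, with a 95% interval from −2.48 to −0.37. Its unadjusted p was 0.0139 and its adjusted p 0.58 in limma. These values rest on few reads. They correspond to an estimated 6 and 5 reads in the mutants, with exact Poisson 95% intervals of 2.2 to 13.1 and 1.6 to 11.7, against 25 and 25 in the siblings, each with an interval of 16.2 to 36.9. The intervals cover counting error only. Reads are not corrected for depth, and 1 unit was 0.904 and 0.75 reads in the mutants against 1.341 and 1.146 in the siblings. Expressed in units, the intervals of the mutants and the siblings overlap. Without 1 library the change ran from −1.52 to −1.32, and with a pseudocount of 10 it was −0.84.

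The paralogue notum1b lay in the same direction, with 63 and 45 against 79 and 83. Its groups did not overlap, and its log2 fold change was −0.60 ± 0.27 with an adjusted p of 0.718 in limma. Its gene on chromosome 11 overlaps tmc6b on the other strand, and since the strand setting of the counting is not given, reads of both could be mixed. The values of tmc6b were 35 and 47 in the mutants against 26 and 48 in the siblings, which overlapped. Of 9 tested skin and fin fold markers, 3 were lower and 6 higher, and the groups were apart in 1, the fin fold gene and2, with 22 and 39 against 139 and 108. The other fin fold gene of the list, and1, had 8 and 1 against 2 and 3, which overlapped. The summed list of skin and fin fold markers (10 of 10), at 12711 and 15518 against 12566 and 17086, overlapped between the groups and was mostly krt4, at 9893 and 11758 against 9563 and 13531. The part of such tissue in the notum values was not tested.

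**Figure D3:**
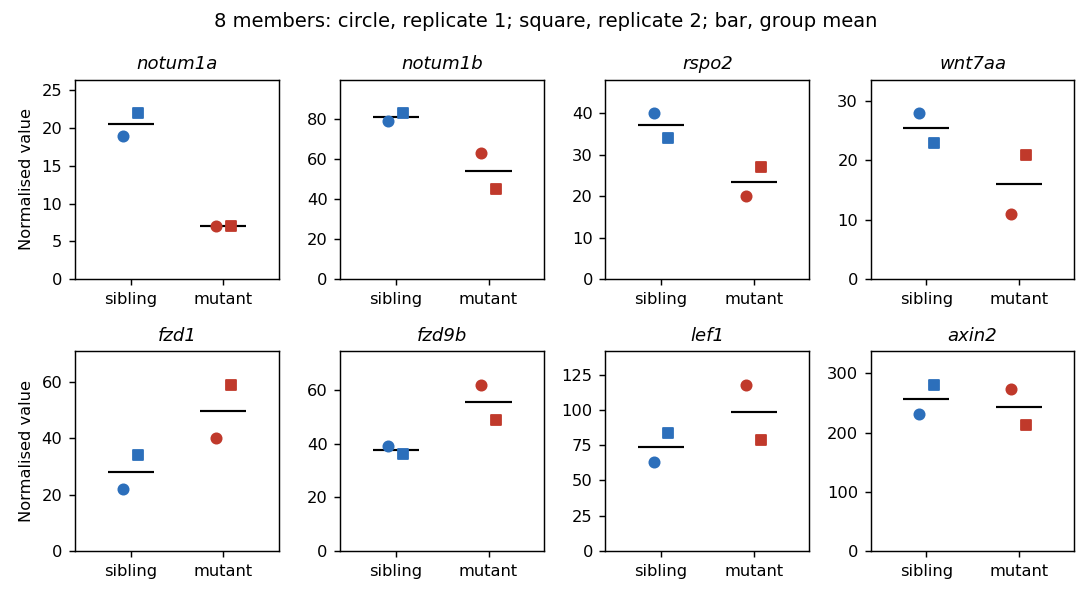
Normalised values of 8 members in sibling (blue) and mutant (red) libraries, with circles for replicate 1, squares for replicate 2 and a bar at the group mean; each vertical axis starts at 0. The groups are apart for notum1a, notum1b, rspo2, wnt7aa, fzd1 and fzd9b and overlap for lef1 and axin2.

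Inhibitors of the Sfrp type, soluble proteins that bind Wnts through a Frizzled-like domain, overlapped between the groups. The gene sfrp5 had 194 and 251 against 204 and 222 (0.05 ± 0.22). For sfrp1a the values were 43 and 77 against 45 and 47, so mutant 2 alone was high, and the change of 0.32 ± 0.32 turned to −0.09 without it. The row overlaps loxl2b on the same strand, with values of 85 and 108 in the mutants against 103 and 94 in the siblings. Mutant 2 was the highest library there as well, and the part of loxl2b reads in the sfrp1a values was not tested. For sfrp2 they were 39 and 52 against 42 and 31 (0.31 ± 0.31). The gene wif1, whose product also binds Wnts, had 72 and 57 against 59 and 58 (0.13 ± 0.26).

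Dickkopf genes, whose best known product Dkk1 binds Lrp5 and Lrp6, all lay under the mean of 10 and were not tested. The gene dkk1b had 9 and 13 against 1 and 4, an estimated 8 and 10 reads against 1 and 5. The mutant values were both above the sibling values, but the Poisson interval of mutant 1, 3.5 to 15.8 reads, overlapped that of sibling 2, 1.6 to 11.7. These reads are not corrected for depth. Expressed in units, the intervals of mutant 1 and sibling 2 overlap as well, while those of mutant 2 and sibling 1 do not. In the opposite order, dkk3b had 3 and 3 against 7 and 12. The values of dkk1a (0 and 3 against 4 and 3) and dkk2 (0 and 3 against 1 and 4) were too low to compare.

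R-spondins amplify Wnt signals by removing the surface ubiquitin ligases Znrf3 and Rnf43 with the help of Lgr receptors. The gene rspo2 (ENSDARG00000079570, minus strand of chromosome 16, GRCz11 positions 38453876 to 38553721) had 20 and 27 in the mutants against 40 and 34 in the siblings, with no overlap. Its log2 fold change was −0.64 ± 0.33, with an adjusted p of 0.752 in limma, and between −0.85 and −0.44 without 1 library. The second gene, rspo3, behaved otherwise, with 8 and 27 against 7 and 20. Here the libraries numbered 2 were high in both groups, and the difference of 0.29 ± 0.67 was far smaller than the replicate gaps. The receptor gene lgr4 had 179 and 132 against 182 and 143 (−0.07 ± 0.25), and the ligase gene znrf3 98 and 67 against 90 and 79 (−0.06 ± 0.27). Both overlapped between the groups, and both were named after their values were seen.

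Inside the cell, no transcript of the scaffolds that hold beta-catenin in check passed the threshold. The gene axin2 (ENSDARG00000100149), an established target of beta-catenin that in turn limits it, had 274 and 213 in the mutants against 231 and 281 in the siblings. The highest and the lowest values of the 2 groups were interleaved. Its log2 fold change of −0.08 ± 0.23 had a 95% interval from −0.59 to 0.44, so a 2-fold change in either direction lay outside it. For axin1, the constitutive scaffold, the values were 249 and 224 against 248 and 207 (0.06 ± 0.21), and its row overlaps the little-covered gene snn. The gene apc, of the other large scaffold, had 310 and 357 against 422 and 364, which did not overlap, with mutant 2 only 7 units below sibling 2 (−0.24 ± 0.21, adjusted p = 0.862 in limma).

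Dishevelled genes, whose products pass the signal from Frizzled to Axin, passed no test either. The values of dvl2 were 132 and 133 against 156 and 139, and those of dvl3a 72 and 75 against 80 and 83. The groups of both were apart, by a log2 fold change of −0.15 each, with SE of 0.21 and 0.23. For dvl3b the replicate pairs were identical, 39 and 32 in either group. The gene dvl1a had 20 and 21 against 22 and 10 (0.43 ± 0.46, and −0.10 without sibling 2), and dvl1b, with 2 and 8 against 6 and 2, was not tested. Naked cuticle genes encode inhibitors that bind Dishevelled. The target gene nkd1 had 119 and 105 against 140 and 86, with the mutants between the siblings and a log2 fold change of 0.03 ± 0.28. For nkd2a the values were 35 and 51 against 55 and 74 (−0.58 ± 0.30, adjusted p = 0.763 in limma). They were apart between groups, but with mutant 2 only 4 units below sibling 1. The gene nkd3, at 6 and 5 against 6 and 16, was not tested. Of the 9 tested intracellular members, apc, dvl2, dvl3a and nkd2a had both mutants below both siblings (44.4%, against 18.3% of all genes). The mutants lay above without overlap in 0 of them, against 15.7% of all genes.

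All 5 transcription factor genes overlapped between the groups. The gene lef1 (ENSDARG00000031894, plus strand of chromosome 1, GRCz11 positions 49814461 to 49905357), which encodes an activator and is itself a target of the pathway, had 118 and 79 in the mutants against 63 and 84 in the siblings. Mutant 1 was highest, while mutant 2 lay below sibling 2. Its log2 fold change was 0.40 ± 0.28 with a 95% interval from −0.24 to 1.05 and an adjusted p of 0.819 in limma, and it was 0.12 without mutant 1 and 0.69 without mutant 2. The repressor gene tcf7l1a, mutated in headless fish, had 166 and 215 against 197 and 179 (0.01 ± 0.22), and its paralogue tcf7l1b 124 and 149 against 186 and 143 (−0.26 ± 0.24). For tcf7l2 the values were 96 and 103 against 101 and 65, so sibling 2 alone was low (0.29 ± 0.27, and −0.02 without it). The values of tcf7 were 15 and 12 against 9 and 17 (0.10 ± 0.50).

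**Figure D4:**
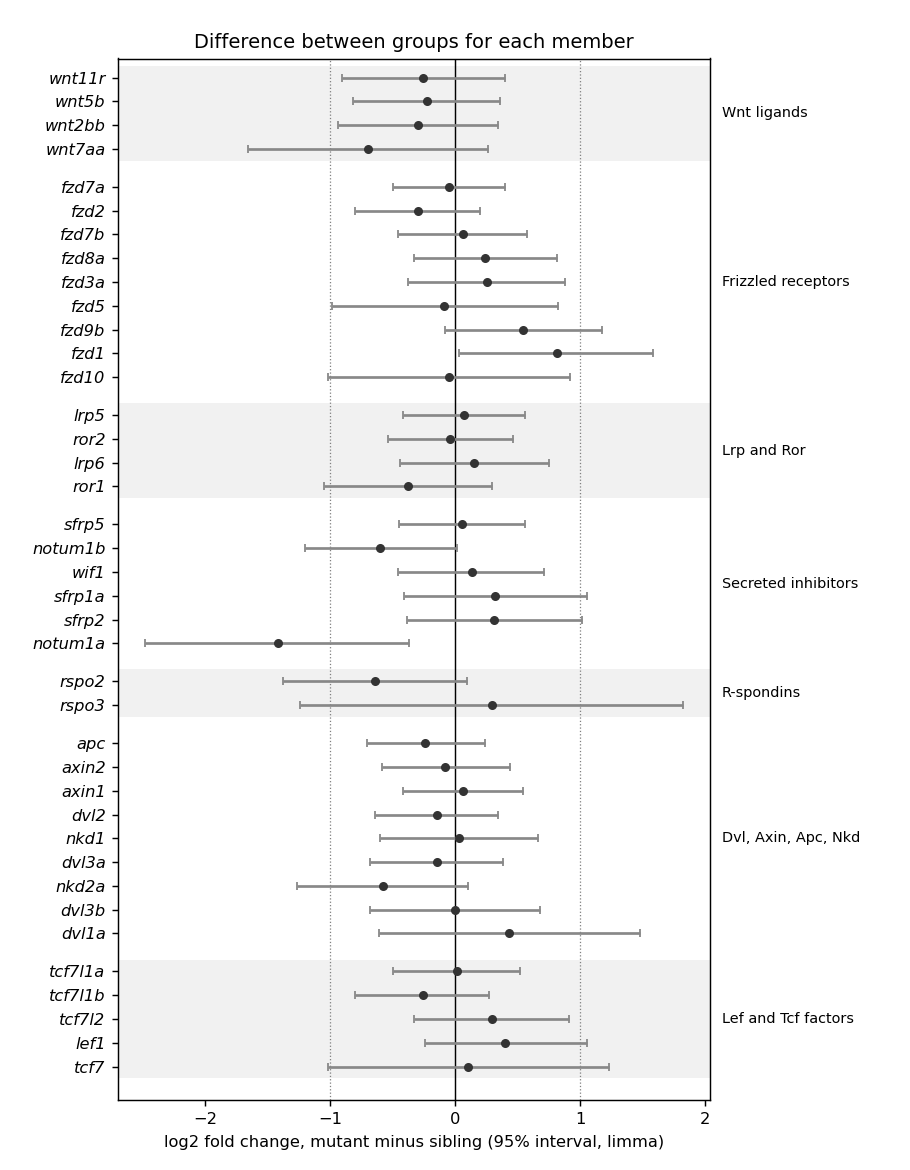
Log2 fold change, mutant minus sibling, of the 39 tested members with 95% intervals from limma, grouped by role; dotted lines mark a 2-fold change. The intervals of notum1a (−2.48 to −0.37) and fzd1 (0.03 to 1.58) do not include 0, and neither gene passed after adjustment over all genes.

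Other genes of the pathway were followed in 7 lists of genes that are not members, and none of them passed the threshold. Of 7 tested genes for Wnt secretion, 3 were lower and 4 higher, 0 passed, and the median log2 fold change was 0.02. The gene wls, of the carrier that brings Wnt proteins to the cell surface, had 122 and 127 against 113 and 133 (0.02 ± 0.22). The smallest p of that list in each direction belonged to vps35, of the retromer complex that recycles Wls, with 103 and 105 against 152 and 138 (−0.47 ± 0.22), and to the trafficking gene tmed2 (0.31 ± 0.24). The next in order were vps26a at −0.18, tmed5 at −0.27, vps29 at 0.46 and porcnl at 0.17.

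Of 25 tested genes around beta-catenin and its destruction, 15 were lower and 10 higher, with a median of −0.02 and 0 past the threshold. The zebrafish genes of beta-catenin itself were both apart between the groups by a small amount. The values of ctnnb1 were 988 and 966 against 1264 and 1086 (−0.26 ± 0.21, adjusted p = 0.842 in limma), and those of ctnnb2 378 and 400 against 441 and 477 (−0.24 ± 0.20, adjusted p = 0.854 in limma). The kinase gene csnk1db stood at −0.34 ± 0.22. In the other direction apc2, an Apc relative known chiefly from neurons, had 49 and 24 against 8 and 8 (1.97 ± 0.46, adjusted p = 0.343 in limma), siah2l stood at 0.65 ± 0.47 and wtip at 0.36 ± 0.28. The neural marker elavl3 had 222 and 72 against 146 and 11, and the part of neural tissue in the apc2 values was not tested.

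Nuclear partners of beta-catenin were split into 9 lower and 13 higher of 22 tested, with a median of 0.04 and 0 past the threshold. The lower ones with the smallest p were the co-repressor genes ctbp1 (−0.26 ± 0.20) and tle3a (−0.25 ± 0.22) and the acetyltransferase gene ep300a (−0.20 ± 0.21), and the higher ones their paralogues ctbp2a (0.42 ± 0.33), tle3b (0.47 ± 0.25) and ep300b (0.26 ± 0.20). For tle3a the values were 97 and 100 against 120 and 115, and for tle3b 85 and 81 against 54 and 66, so the groups of both were apart, in opposite order.

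Among surface modulators, 13 of 18 tested genes were lower and 5 higher, with a median of −0.07 and 0 past the threshold. The first by p was reck, described with wnt7aa above, followed by shisa2b (−0.37 ± 0.33) and shisa3 (−0.16 ± 0.21), of a family that holds Frizzled receptors back in the cell. Higher with the smallest p were the Dickkopf receptor gene kremen1, with 56 and 52 against 27 and 57 (0.45 ± 0.36), serpinf1 (0.44 ± 0.45) and the Lrp inhibitor gene sost (0.26 ± 0.30). The cardiac inhibitor genes tmem88a and tmem88b, named after their values were seen, had 125 and 87 against 145 and 75 and 153 and 113 against 183 and 118, with the mutants between the siblings for the first and overlapping for the second.

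For planar cell polarity, the branch that orients cells within a sheet, 16 of 27 tested genes were lower and 11 higher, with a median of −0.10 and 0 past the threshold. The GTPase gene rac1b had 80 and 69 against 107 and 118 (−0.59 ± 0.23, adjusted p = 0.698 in limma), and prickle2b and mapk8b stood at −0.48 ± 0.27 and −0.45 ± 0.29. Higher with the smallest p were cadherin genes of this branch, celsr2 with 58 and 44 against 30 and 25 (0.86 ± 0.30, adjusted p = 0.63 in limma), celsr3 with 55 and 19 against 22 and 3 (1.80 ± 0.80) and celsr1b with 102 and 37 against 26 and 43 (0.86 ± 0.46). Their relative celsr1a, named after its values were seen, had 260 and 217 against 287 and 225, and overlapped (−0.10 ± 0.23). In celsr3 the library of replicate 1 was the higher one in both groups, as it was for the summed neural markers, whose part was not tested. Among heparan sulphate genes, whose sugars hold Wnt proteins at the cell surface, 5 of 14 tested genes were lower, 8 higher and 1 at 0.00, with a median of 0.01 and 0 past the threshold. There gpc4, a glypican of cell movement in zebrafish, had 328 and 283 against 473 and 360 (−0.44 ± 0.22), sdc2 stood at −0.38 ± 0.24, ugdh at −0.13 ± 0.32, and the sulfatase gene sulf2a at 0.53 ± 0.34, extl3 at 0.28 ± 0.26 and ext1b at 0.25 ± 0.24.

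Of genes known as targets of beta-catenin in various tissues, 13 of 16 tested were higher and 3 lower (18.8%, against 50.2% of all genes). Their median was 0.09, and 0 were past the threshold. For 13 of the 16 (81.2%, against 76.0% of all genes), the difference between groups was smaller than the larger of the 2 replicate gaps. The target genes axin2, lef1, nkd1 and notum1a are members and not in this list. Their log2 fold changes were −0.08, 0.40, 0.03 and −1.42. The direct target gene sp5a had 50 and 16 against 7 and 17, where mutant 1 was high and sibling 1 low (1.29 ± 0.60, adjusted p = 0.727 in limma). The cardiac progenitor gene isl1 had 61 and 36 against 37 and 22 (0.70 ± 0.38). Replicate 1 was higher in both groups for isl1, as it was for the summed neural markers, whose part was not tested. For edar the values were 13 and 27 against 7 and 17 (0.72 ± 0.56), with replicate 2 higher in both groups. The lower genes included id2b at −0.08 and mycb at −0.05. In this list the mutants lay below the siblings without overlap for 0 genes and above for 3 (18.8%, against 15.7% of all genes).

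**Figure D5:**
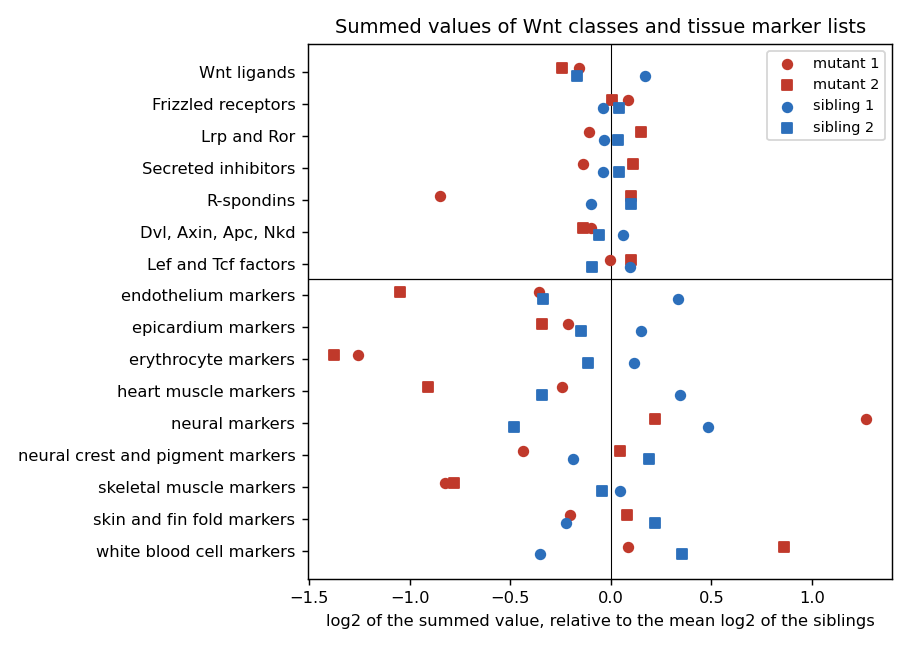
Summed values of each Wnt class (above the line, all members) and of each tissue marker list (below), per library, as log2 relative to the mean log2 of the siblings; red is mutant and blue sibling, circles replicate 1 and squares replicate 2. Erythrocyte, skeletal muscle, endothelial and epicardial sums lie lower in the mutants. For endothelium, mutant 1 is close to sibling 2, and without tie1, which the list holds, it would lie above sibling 2. Wnt class sums lie close to 0 apart from the R-spondins of mutant 1, whose sum of 28 compares with 54, 47 and 54.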

How the data were processed

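Per the submitters' processing notes, FastQC, STAR 2.4.0a, featureCounts 1.4.5-p1, Subread and the build GRCz11 (danRer11) were used, with no role given. Libraries were made from 2 ng of total RNA with a stranded kit for very small inputs, per the labels' protocols. The authors deposited a table of whole-number normalised values, treated here as a score with no fixed unit, since the sources used here name no normalization, gene filter or strand setting. The spacing of low values gave 0.904, 0.75, 1.341 and 1.146 reads per unit in mutant 1, mutant 2, sibling 1 and sibling 2. Rounding merges reads where this exceeds 1, so no count test was run, and depths are estimates.

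Genes with a mean of at least 10 were compared as log2(value + 1) in limma (version 3.58.1, under R 4.3.3). Variances were moderated along a trend with the mean, and p-values were adjusted by Benjamini-Hochberg over the 12118 genes, at 0.05. Fold changes on this scale understate those of low genes. The fit was tested on simulated data whose variances follow the mean trend exactly, which checks the computation and not its use on these 4 pools. An exact permutation test of 2 against 2 cannot go below 0.333 and was not used.

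Members and gene lists were chosen with earlier results of these data known. Every member is named. Beyond that the rule names the 8 members with the smallest p in each direction, the 2 highest means per class, a fixed set of target and heart genes, and the 3 smallest p in each direction of each further list. The values of some genes are not reported here. Other settings are in the closing section.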

Additional observations from a re-analysis of the deposited data

How the results depend on the processing

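No Wnt member was called under any of the 12 alternatives, where the lowest adjusted p of a member in limma was 0.276 (notum1a, with the replicate number as a block). Calls over all genes, 0 in the fit reported, came to 13 with a mean of at least 50, 8 with TMM scaling, 5 when rescaled without mitochondrial and erythrocyte genes, 16 with the robust setting and 95 with the replicate block, and to 0 without any 1 library. At an unadjusted p under 0.05 limma gave 526 lower and 316 higher genes. The numbers only name the replicates, with 2 in each group. The differences between replicates 1 and 2 correlated at 0.198 between mutants and siblings over 12118 genes, which are not independent, and the block called 0 members. The members' median of 0.00 became 0.04 with no filter, −0.04 with a mean of at least 50, −0.02 with TMM scaling, 0.04 with quantile normalization, 0.08 when rescaled and between −0.06 and −0.03 without 1 library. The median of all genes was 0.01, −0.04, −0.02, 0.01 and 0.08 under the first 5 of these, and −0.03 to 0.00 without 1 library. With no filter, 31 members were higher and 7 lay above the siblings without overlap, against 1 with a mean of at least 50 and 6 when rescaled. Without 1 library, each way of leaving one out gave 21 to 23 lower and 16 to 18 higher members, 14 to 17 below and 8 to 12 above without overlap, as 1 value is then easier to separate. Under these other settings, the shares of all genes by direction and overlap were not computed. The member counts under them therefore cannot be set against all genes. Directions turned for ror2 (0.02) and fzd7a (0.04) with quantile normalization, for ror2 (0.04), fzd7a (0.03), fzd10 (0.03) and axin2 (0.01) when rescaled, and for tcf7l1a (−0.01) with TMM scaling, as did mycb (0.03), lgr4 (0.01) and znrf3 (0.03) when rescaled. Without 1 library, 20 of 39 members turned, and their log2 fold changes over the 4 such fits ran as follows: lrp5 −0.11 to 0.25, ror2 −0.11 to 0.03, lrp6 −0.12 to 0.42, fzd7a −0.11 to 0.01, fzd7b −0.05 to 0.17, fzd5 −0.68 to 0.51, fzd10 −0.37 to 0.28, axin2 −0.26 to 0.10, axin1 −0.07 to 0.19, nkd1 −0.32 to 0.37, dvl1a −0.10 to 0.97, wnt11r −0.61 to 0.09, wnt5b −0.53 to 0.07, rspo3 −0.53 to 1.11, sfrp5 −0.13 to 0.24, wif1 −0.04 to 0.30, sfrp1a −0.09 to 0.73, tcf7l1a −0.18 to 0.19, tcf7l2 −0.02 to 0.61 and tcf7 −0.32 to 0.53. The named genes of other lists that turned were vps26a −0.37 to 0.01, tmed5 −0.77 to 0.23, porcnl −0.07 to 0.42, ctbp2a −0.02 to 0.87, kremen1 −0.08 to 0.97, serpinf1 −0.08 to 0.97, id2b −0.32 to 0.15, mycb −0.58 to 0.48, wls −0.09 to 0.14, lgr4 −0.29 to 0.15, znrf3 −0.33 to 0.21 and adgra2 −0.29 to 0.08. The cause was not tested.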

Other observations

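The annotation columns of the deposited table assign 45 of the 58 members to the KEGG Wnt pathway, together with 97 genes that are not members, where wnt9b is left out of both. Of these 97, 88 were tested, 52 were lower and 36 higher in the mutants, with a median log2 fold change of −0.05 and 0 past the threshold in limma. The mutants lay below the siblings without overlap in 28.4% of the 88 and above in 12.5%, against 18.3% and 15.7% of all genes tested. After apc2 and rac1b, the smallest p belonged to prkcbb, which encodes a protein kinase C of the calcium branch, with 53 and 56 against 89 and 73 (−0.56 ± 0.25, adjusted p = 0.718 in limma). The gene rac2, which encodes a GTPase of white blood cells, had 21 and 36 against 18 and 17 (0.63 ± 0.39). Summed white blood cell markers (6 of 6) were 126 and 216 against 93 and 152, so mutant 2 was highest in both, and their part in the rac2 values was not tested. These genes were named after their values were seen.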
